A study of Mus musculus with 10 samples.

Results

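This account compares ribosome-bound RNA from the cerebral cortex of mice that self-administered cocaine with that of their yoked controls. It uses 6 of the 10 libraries of the study, which are cocaine self-administration IP replicates 1 to 3 and yoked control IP replicates 1 to 3, and every gene in their count tables. Of 32531 genes in the tables, 16642 had enough counts to be tested. All mice were adults of the S100a10-EGFP/Rpl10a line ES691, in which the regulatory sequence of S100a10 drives an EGFP-tagged copy of the ribosomal protein Rpl10a. The study used intravenous self-administration with short access to the drug. The remaining libraries are 3 saline self-administration IPs, which entered the model only to estimate the spread and the replicate term, and 1 saline input (total RNA of the same tissue). What was given to the yoked mice is not stated in the labels, nor is the number of animals behind a library or whether different animals gave the libraries of a group. The p-values are therefore a measure of the spread among these libraries alone, part of which can be technical. Library names place the cocaine libraries on lane 5 and the yoked libraries on lane 6, so lane and treatment cannot be told apart.

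In translating ribosome affinity purification, ribosomes that carry the tag are captured with antibodies against EGFP, and the RNA they hold is sequenced as the immunopurified (IP) fraction. S100a10, also called p11, is a small protein of the S100 family that pairs with annexin A2 and carries serotonin receptors to the cell surface. In cortex it is known from deep-layer projection neurons and also from vascular and meningeal cells, so the driver is not confined to neurons. Cocaine blocks the reuptake of dopamine, serotonin and noradrenaline, and acute drug exposure is known to induce immediate early genes such as Fos and Arc in forebrain neurons. In a yoked design an animal generally receives its infusions on the schedule of a partner, which separates the drug's own effect from that of working for it.

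No gene passed the threshold of an adjusted p of 0.05 in edgeR's quasi-likelihood test with Benjamini-Hochberg adjustment over the 16642 genes (0 called, which is 0% of those tested, in either direction). The smallest adjusted p was 0.999, so that value holds for each gene named here. At an unadjusted p under 0.05 there were 439 genes, or 2.64% of those tested. That is less than the share of 0.05 which this threshold gives on average when no gene differs. Of these, 280 (1.68%) were higher and 159 (0.955%) were lower in cocaine. Without yoked replicate 1 the shares were 1.35% higher and 1.52% lower. Log2 fold changes were above 0 for 48.3% of the genes tested, so neither direction prevailed over all genes. With DESeq2 45 genes were called, of which 41 had under 20 counts in each of the 6 libraries. Testing with no filter on low counts called 33 genes, all of which had been tested, and not called, with the filter. The typical difference was small. The median size of a log2 fold change was 0.13, against a median standard error of 0.18, and 95% of genes had one under 0.75. With 3 libraries a group, even changes of several times their standard error were not called. The absence of a call therefore does not show that a gene was unchanged.

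Below that threshold the gene lists are described without a test, and they were chosen with earlier results of these data known. Transcripts of oligodendrocytes, astrocytes and interneurons stood higher in the cocaine libraries, while interferon-stimulated genes and genes of the meninges stood slightly lower. Immediate early, dopamine, glutamate and chromatin genes were centred on 0. The glial and interneuron difference came mostly from 1 pair of libraries, and the genes that carried it were those least retained in the IP relative to input. Without the replicate term, the number at an unadjusted p under 0.05 went from 12 to 2 for oligodendrocyte genes and from 8 to 0 for interneuron genes. These patterns are described below gene by gene, none of them as a passed test.

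Counts assigned to genes ran from 38653752 to 50898401 in the 6 libraries. The precursor ribosomal RNA Rn45s took 5.19% ± 0.535 of gene counts in cocaine and 5.05% ± 0.889 in yoked (mean ± SD, n = 3, exact permutation test, two-sided p = 0.9, where the smallest possible p is 0.1). The libraries numbered 3 stood apart from those numbered 1 and 2 within the groups, with 2601 genes (15.6%) called between them by edgeR, 1561 higher (9.38%) and 1040 lower (6.25%) in the libraries numbered 3. Leaving out 1 of the 6 libraries gave 1089 to 3535 such genes. The replicate number was therefore kept as a term of the model. It also marks the index barcode, so number and barcode cannot be told apart. Whether numbers 1 and 2 pair libraries of the 2 groups is not shown by the data, and "pair" below means only the cocaine and yoked libraries that share a number.

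The defining markers show which cells gave RNA to these IPs. Slc17a7, the vesicular glutamate transporter of cortical excitatory neurons, stood at 230 to 539 CPM (counts scaled to the depth of the library) in cocaine and 314 to 637 in yoked. The meningeal fibroblast gene Dcn stood at 92.9 to 106 CPM and 86.1 to 135 CPM, several times its 10.7 CPM in the input. Ptgds, a prostaglandin synthase made in the meninges, was the most abundant of the fixed genes, with 20751, 19240 and 28055 CPM in cocaine replicates 1 to 3 and 22852, 19679 and 33915 CPM in yoked replicates 1 to 3. So RNA of neurons is present beside a large meningeal fraction, and S100a10 is known from both kinds of cell. The median log2 ratio of saline IP to input was −0.12 for the excitatory neuron list and 4.55 for the meningeal fibroblast list. Excitatory neuron genes as a list were thus not enriched over input, and their level alone does not show how much of that RNA was captured. Of the oligodendrocyte markers, Mbp stood at 80.7 to 160 CPM in cocaine and 75.5 to 107 CPM in yoked. Mog was lower, at 4.38 to 10.6 CPM and 2.17 to 9.22 CPM. The choroid plexus marker Folr1 had no count in 4 of the 6 libraries and was not tested.

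The gene whose regulatory sequence drives the tag did not separate the groups. S100a10 (chromosome 3, 93555080 to 93564643, GRCm38) measured 200, 204 and 168 CPM in cocaine and 183, 195 and 232 CPM in yoked, against 36.3 CPM in the input. The groups overlapped, and the log2 fold change was −0.11 ± 0.16 (SE) with a 95% interval from −0.45 to 0.23. Its partner Anxa2 gave 0.03 (interval −0.23 to 0.30), and Ahnak, a large scaffold that binds the S100a10 and Anxa2 complex, gave −0.0038 (interval −0.41 to 0.40). Of the 15 measured genes of the p11 list, 5 were higher and 10 lower, and none was at an unadjusted p under 0.05. Their median log2 fold change was −0.04, against −0.01 over all genes tested.

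Genes induced by neuronal activity were close to even between the groups. Fos, the immediate early transcription factor used as a marker of recent firing, measured 24.9, 21.3 and 20.2 CPM in cocaine and 28.2, 20.8 and 19.8 CPM in yoked. The 2 ranges nearly coincide, and the log2 fold change was −0.05 with a 95% interval from −0.44 to 0.34. Arc, a synaptic protein translated near active synapses, measured 104, 94.2 and 85.2 CPM against 96.3, 90.8 and 79.7 CPM, a log2 fold change of 0.09 (interval −0.35 to 0.53). For Egr1 the value was 0.08 (interval −0.18 to 0.34), for Egr2 −0.17 (interval −0.55 to 0.21), for Egr4 0.07 (interval −0.30 to 0.44) and for Nr4a1 −0.05 (interval −0.45 to 0.35). Fosb, whose stable splice product is known to build up under repeated cocaine, gave −0.08 (interval −0.45 to 0.30), and Junb gave 0.22 (interval −0.28 to 0.72). Gene counts do not separate the Fosb splice forms.

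Npas4, a neuron-specific activity factor, had the largest estimate of these genes. It measured 8.27, 4.84 and 6.46 CPM in cocaine and 4.59, 4.90 and 4.66 CPM in yoked. Cocaine replicates 1 and 3 were above all yoked libraries and cocaine replicate 2 was not. The log2 fold change was 0.43 ± 0.25 (SE), with an interval from −0.10 to 0.96. Over the list of 25 immediate early transcription factors measured, 14 were higher and 11 lower, none at an unadjusted p under 0.05 in either direction, with a median of 0.04. Medians within pairs 1 to 3 were −0.01, −0.02 and 0.03.

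Effectors and feedback regulators of activity were also close to even. Of 26 measured, 14 were higher and 12 lower, with a median of 0.03. At an unadjusted p under 0.05, 2 were higher (1.68% of all genes tested were) and none lower. That count of 2 was 1 without the replicate term and 0 without yoked replicate 1. Ptgs2, the inducible cyclooxygenase, measured 7.89, 4.11 and 5.22 CPM in cocaine and 3.26, 4.07 and 3.62 CPM in yoked. Its groups did not overlap, although pair 2 differed by only 0.02 on the log2 scale, and the log2 fold change was 0.64 ± 0.27 (SE, unadjusted p = 0.0349 by edgeR). Scg2, a granin of dense-core vesicles, gave 0.42 (unadjusted p = 0.0257) but was 0.03 lower in pair 2. The neurotrophin Bdnf gave −0.02 (interval −0.41 to 0.37), the scaffold Homer1 −0.01 (interval −0.29 to 0.27) and the phosphatase Dusp1 0.03 (interval −0.49 to 0.56). Nrn1, a membrane-anchored neurite growth protein, gave −0.32 (interval −0.65 to 0.0082).

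**Figure D1:**
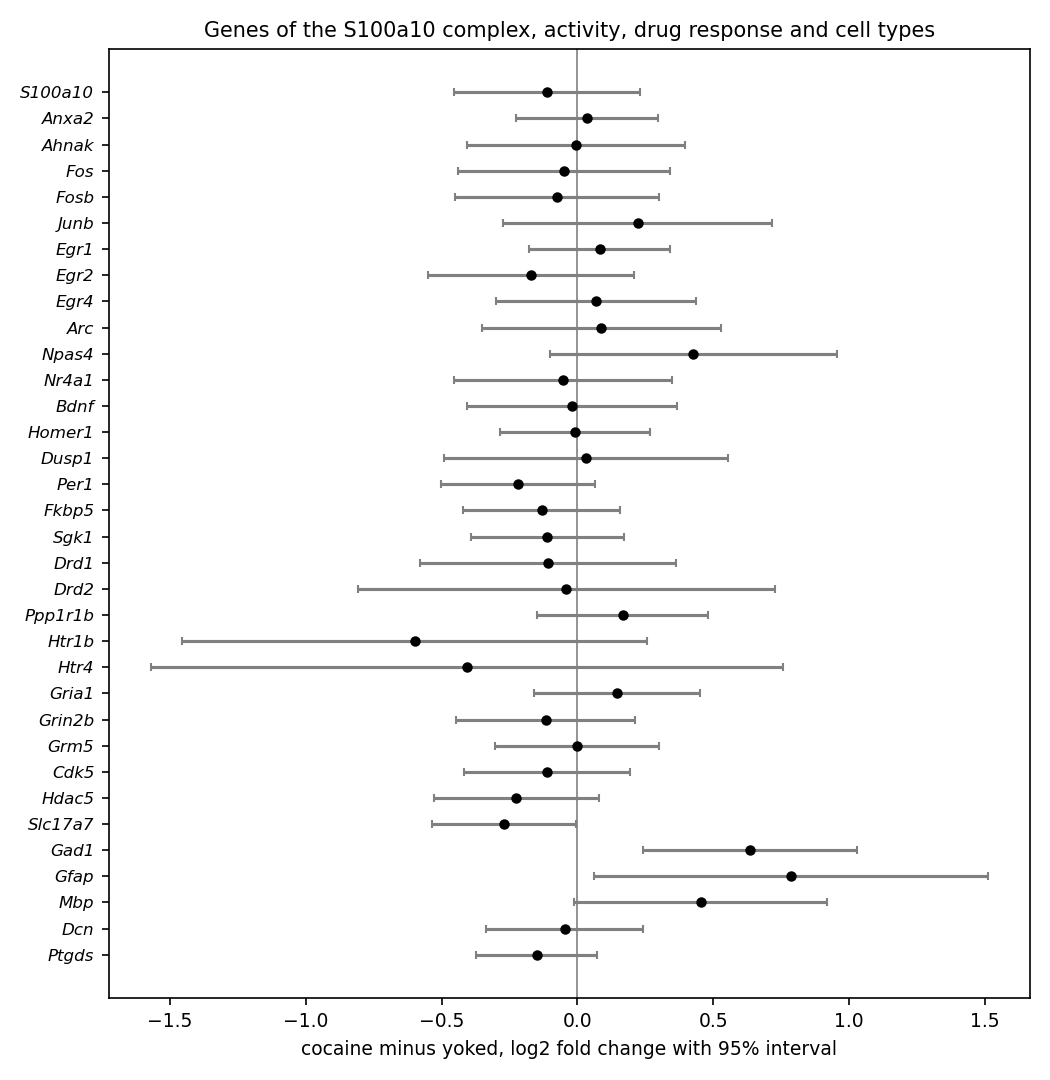
Log2 fold change, cocaine minus yoked, of 34 of the 35 fixed genes (Ttr is off the scale and is described in the text), with the 95% interval of the edgeR model as horizontal bars and a vertical line at 0. Most points lie near 0, Gad1 and Gfap lie to the right with intervals above 0, and the interval of Slc17a7 lies just below 0.

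The dopamine receptor genes Drd1 and Drd2 gave −0.11 (interval −0.58 to 0.36) and −0.04 (interval −0.81 to 0.73). Drd2 was measured at only 1.98 to 3.03 CPM in cocaine and 1.30 to 4.29 CPM in yoked, and its pairs ran from 1.10 to −1.10. Ppp1r1b, which encodes DARPP-32, the phosphatase inhibitor that relays dopamine signals, gave 0.17 (interval −0.15 to 0.48) and was higher in all 3 pairs. Of 22 measured genes of the dopamine list, 10 were higher and 12 lower, with a median of −0.01. In this list 1 gene was higher at an unadjusted p under 0.05, where 1.68% of all genes tested were. That gene was Ddc, the decarboxylase that makes dopamine and serotonin, at 1.80, 1.13 and 1.57 CPM in cocaine and 0.391, 1.10 and 0.249 CPM in yoked (log2 fold change 1.65 ± 0.57 SE, unadjusted p = 0.011 by edgeR). Rgs9, which shortens G-protein signals in striatal-type neurons, gave 0.62 (interval −0.02 to 1.26) but was lower in pair 2.

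Serotonin genes leaned the other way. Of 13 measured, 3 were higher and 10 lower, with a median of −0.23, none at an unadjusted p under 0.05. Htr7, a receptor coupled to cAMP production, measured 6.43, 8.43 and 8.44 CPM in cocaine and 8.76, 8.78 and 13.6 CPM in yoked, and its groups did not overlap (log2 fold change −0.40, interval −0.88 to 0.09). Htr1b, a receptor known to bind S100a10, measured 1.26, 0.995 and 0.856 CPM against 1.36, 1.37 and 2.08 CPM, also without overlap (−0.60, interval −1.46 to 0.26). Htr5a gave −0.23 (interval −0.55 to 0.09), and Htr4, another S100a10 partner, gave −0.41 with a wide interval from −1.57 to 0.76. The pair medians of the list were −0.10, −0.06 and −0.68, so pair 3 carried most of it. Over all genes tested 4.75% had groups that did not overlap, 2.38% higher and 2.37% lower, and in this list the 2 of 13 were Htr7 and Htr1b.

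Glutamate receptors numbered 12 higher and 16 lower of 28, none at an unadjusted p under 0.05, with a median of −0.02. The AMPA receptor subunit gene Gria1 gave 0.15 (interval −0.16 to 0.45), the NMDA receptor subunit gene Grin2b −0.12 (interval −0.45 to 0.21), and the metabotropic receptor gene Grm5 −0.00023 (interval −0.30 to 0.30). Grin3a, a subunit that lowers NMDA receptor calcium flux, had groups that did not overlap, at 17.1 to 19.1 CPM against 11.4 to 16.6 CPM (0.39, interval −0.02 to 0.79). GABA receptor genes were 5 higher and 10 lower of 15 (median −0.05), with Gabrg1 at 0.54 (interval −0.05 to 1.13). Sodium and calcium channel genes were 7 higher and 20 lower of 27 with a median of −0.08. In that list 11 genes were lower in all 3 pairs, where 10.7% of all genes tested were. Among 35 potassium channel genes 1 was higher and 1 lower at an unadjusted p under 0.05, where 1.68% and 0.955% of all genes tested were. Kcnj10, the inward rectifier of astrocytes, gave 0.79 and Kcnk2, a background potassium channel, gave −0.33.

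Chromatin enzymes, kinases and hormone-responsive genes gave medians within 0.05 of 0. Histone deacetylases and acetyltransferases were 11 higher and 9 lower of 20 with a median of 0.04, and Hdac5, a deacetylase studied in cocaine responses, gave −0.22 (interval −0.53 to 0.08). Genes of DNA and histone methylation were 8 higher and 11 lower of 19 (median −0.02). The 35 genes of cAMP and MAP kinase signalling had a median of −0.03, with Rps6ka2, a ribosomal S6 kinase, at 0.36 (unadjusted p = 0.0361 by edgeR). Cdk5, a kinase known as a target of Fosb in the striatum, gave −0.11 (interval −0.42 to 0.20). Glucocorticoid-responsive genes divided 11 to 11 (median −0.01). Their member Fkbp5, a chaperone that restrains the glucocorticoid receptor, gave −0.13 (interval −0.42 to 0.16) and Sgk1 gave −0.11 (interval −0.39 to 0.17). Clock genes were 6 higher and 13 lower of 19 (median −0.04). Per1 gave −0.22 (interval −0.50 to 0.07), and Bhlhe40, a repressor within the clock, had groups that did not overlap at 324 to 376 CPM against 397 to 412 CPM (−0.20, interval −0.45 to 0.06).

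Neuropeptide genes leaned higher, with 17 of 24 above 0, 3 at an unadjusted p under 0.05 (Pdyn, Tac1 and Penk) and none below. Over all genes tested 48.3% were above 0 and 1.68% were higher at that p, and without the replicate term none of the 24 was. The list's median was 0.13, and 0.04 without yoked replicate 2. Pdyn, the precursor of dynorphins, which act on kappa opioid receptors, measured 5.93, 6.55 and 2.16 CPM in cocaine and 2.45, 4.84 and 1.31 CPM in yoked. Each cocaine library was above the yoked library of its number, while the groups overlapped because both libraries numbered 3 were low (0.80 ± 0.25 SE, unadjusted p = 0.00613 by edgeR). Tac1, the precursor of substance P, gave 0.53 and was higher in all 3 pairs. Penk, the precursor of enkephalins, gave 0.49 but was 0.19 lower in pair 2. All 3 were among transcripts depleted from the IP, at −2.11, −2.17 and −1.57 on the log2 scale for saline IP over input.

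The clearest differences by size lay in cell type markers. Oligodendrocyte genes were higher in cocaine for 19 of the 20 measured, 12 of them at an unadjusted p under 0.05 and none lower at that level, where the share over all genes tested was 1.68% higher. The list's median log2 fold change was 0.71, and 14 of the 20 were higher in all 3 pairs (10.4% of all genes tested were). None of the 20 had groups that did not overlap, where 2.38% of all genes tested were higher without overlap. Ermn, a cytoskeletal protein of myelinating cells, measured 53.3, 35.1 and 9.54 CPM in cocaine and 16.1, 23.1 and 4.23 CPM in yoked. Cocaine replicates 1 and 2 were above every yoked library, and cocaine replicate 3 was above yoked replicate 3 only (1.23 ± 0.32 SE, unadjusted p = 0.00174 by edgeR). Aspa, the aspartoacylase of oligodendrocytes, measured 33.2, 31.9 and 21.1 CPM against 18.6, 24.9 and 15.1 CPM (0.56 ± 0.14 SE). Mbp, a main protein of compact myelin, measured 160, 133 and 80.7 CPM against 88.2, 107 and 75.5 CPM (0.45, interval −0.01 to 0.92).

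In these IPs, more cells of a type, more RNA per cell and more background RNA cannot be told apart. None of them was tested. The difference was unequal between pairs. The list medians were 1.21 in pair 1, 0.18 in pair 2 and 0.49 in pair 3. Summed over the 20 genes, the level was 1084, 845 and 447 CPM in cocaine and 494, 738 and 353 CPM in yoked. The saline libraries also varied widely, at 421, 854 and 434 CPM, all below cocaine replicate 1, and the input held 1916 CPM. Without cocaine replicate 1 the number of these genes at an unadjusted p under 0.05 was 2, without yoked replicate 1 it was 6 and without yoked replicate 3 it was 7. Without the replicate term it was 2.

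Car2, the carbonic anhydrase of oligodendrocytes, had the smallest unadjusted p of all genes, 0.000352 by edgeR, and was singled out for that after its values were seen. It measured 221, 162 and 53.1 CPM in cocaine and 69.4, 126 and 27.4 CPM in yoked, a log2 fold change of 1.03 ± 0.22 (SE). The pairs gave 1.67, 0.36 and 0.95. Olig2 and Olig1, transcription factors of the oligodendrocyte lineage listed here with its precursors, gave 1.01 ± 0.25 and 0.93 ± 0.32 (SE) and were higher in all 3 pairs. Of 10 precursor genes, 8 were higher, 3 of them at an unadjusted p under 0.05 (1.68% of all genes tested were). The list median was 0.38 and the pair medians were 0.95, −0.0099 and 0.13. Without cocaine replicate 1 the median was −0.03, and without the replicate term none was at an unadjusted p under 0.05. Pdgfra, a receptor used as the marker of these cells, was flat at −0.02 (interval −0.32 to 0.28), and Bmp4 gave −0.12 (interval −0.45 to 0.21). These 2 were the only precursor genes more abundant in the saline IP than in the input. The 8 that were higher in cocaine were all less abundant in the IP than in the input.

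Interneuron genes were higher for 23 of 24, with 8 at an unadjusted p under 0.05 (1.68% of all genes tested were) and a median of 0.46. Higher in all 3 pairs were 6 of the 24 (10.4% of all genes tested were). None had groups that did not overlap, where 2.38% of all genes tested were higher without overlap. Pvalb, a calcium buffer of fast-spiking interneurons, measured 26.2, 25.1 and 8.05 CPM in cocaine and 9.78, 15.9 and 4.43 CPM in yoked. The groups overlapped through the libraries numbered 3, and each pair was higher, by 1.42, 0.66 and 0.86 (log2 fold change 1.02 ± 0.24 SE, unadjusted p = 0.000593 by edgeR). Gad1, an enzyme of GABA synthesis, measured 144, 115 and 54.2 CPM against 59.6, 108 and 38.3 CPM (0.64 ± 0.18 SE, unadjusted p = 0.00361). Only Ndnf, a marker of layer 1 interneurons, was lower, at −0.04. The pair medians were 0.94, 0.08 and 0.13. Summed levels were 1451, 1164 and 936 CPM in cocaine and 836, 1122 and 785 CPM in yoked, against 1932 CPM in the input. The count of 8 was 2 without cocaine replicate 1, 5 without yoked replicate 1 and 0 without the replicate term. Without both libraries numbered 1, 16 of 24 were higher and the median was 0.13.

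Astrocyte genes were higher for 14 of 20, with 6 at an unadjusted p under 0.05 (1.68% of all genes tested were), none lower at that level, and a median of 0.37. The pair medians were 0.79, 0.05 and 0.17, and without cocaine replicate 1 the median was 0.05. Summed levels were 4914, 3778 and 4990 CPM in cocaine and 3830, 4350 and 4766 CPM in yoked, so cocaine replicate 2 was below yoked replicate 2. Of the defining astrocyte markers, Aldh1l1 was close to even, at 33.1 to 36.3 CPM in cocaine and 32.7 to 39.2 CPM in yoked. Aqp4 stood at 5.2 to 13.8 CPM and 2.87 to 9.7 CPM. Aldoc, an aldolase enriched in astrocytes, measured 495, 309 and 96.3 CPM in cocaine and 110, 257 and 63.5 CPM in yoked (1.12 ± 0.33 SE, unadjusted p = 0.00372 by edgeR). Its pairs were 2.17, 0.27 and 0.60. Fgfr3, a growth factor receptor of astrocytes, measured 7.51, 5.90 and 4.81 CPM against 3.42, 4.65 and 2.17 CPM, and its groups did not overlap (0.87 ± 0.24 SE). Gfap, the intermediate filament that increases in reactive astrocytes, measured 14.6, 11.2 and 3.28 CPM against 4.64, 10.97 and 2.44 CPM (0.79, interval 0.06 to 1.51). Its pairs were 1.64, 0.03 and 0.42. The list count of 6 was 2 without cocaine replicate 1, 10 without cocaine replicate 2 and 1 without the replicate term.

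Not every gene of the astrocyte and oligodendrocyte lists behaved this way. Gjb6, which encodes connexin 30, gave −0.15 (interval −0.46 to 0.16), and Cldn11, a myelin tight junction gene of the oligodendrocyte list, gave −0.10 (interval −0.46 to 0.26). These genes were more abundant in the IP than in the input, by 3.51 and 0.45 on the log2 scale. Gjb6 is known from leptomeningeal cells as well as from astrocytes.

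**Figure D2:**
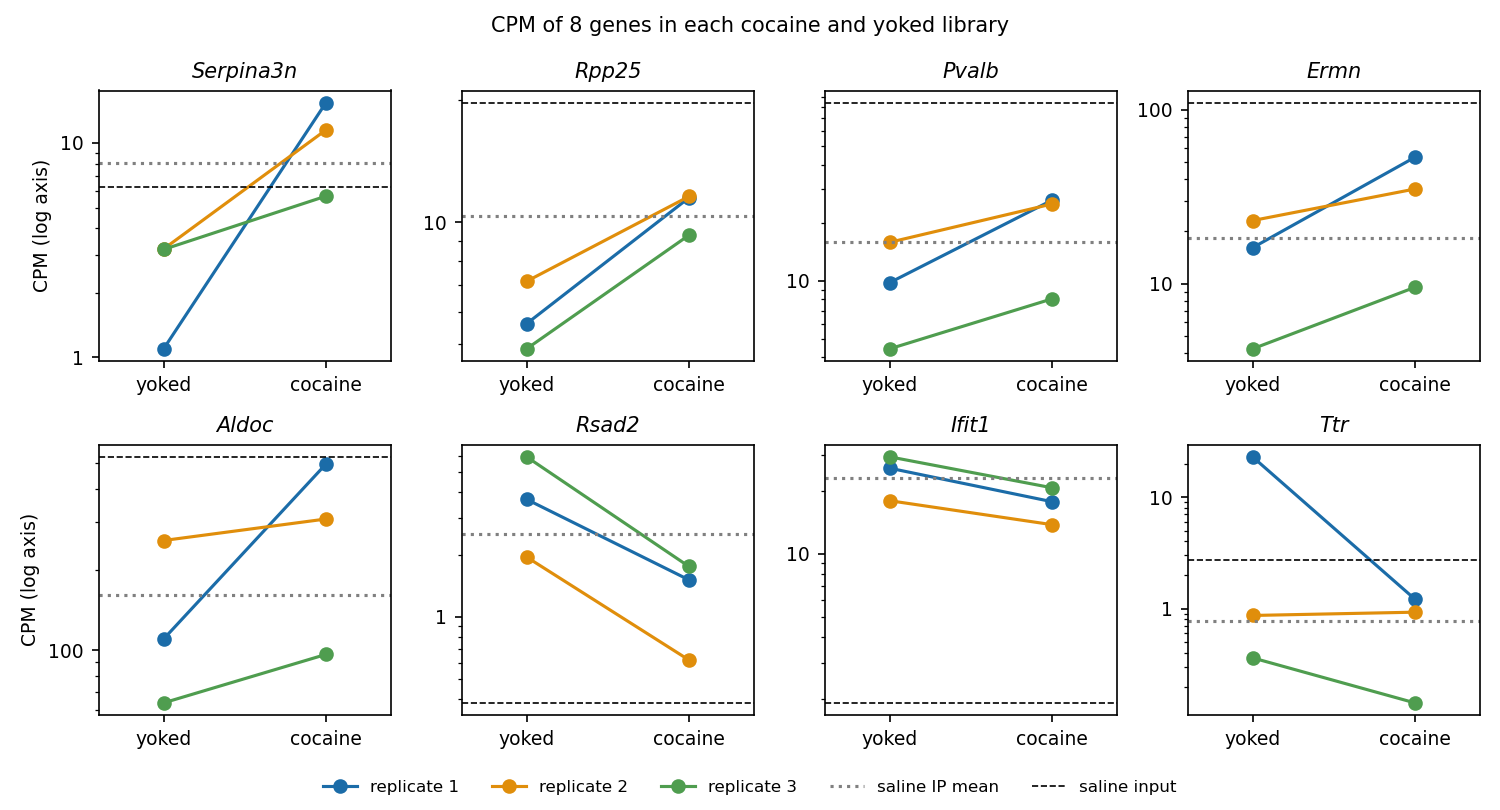
CPM (log axis) of 8 genes in the yoked and cocaine libraries, with a line joining the libraries of the same replicate number, a dotted line at the mean of the saline IPs and a dashed line at the saline input. Pvalb, Ermn and Aldoc lie below the input in all 6 libraries, Rsad2 and Ifit1 lie above it and are lower in each cocaine library than in its yoked pair, and Ttr is high in yoked replicate 1 alone.

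Retention in the IP divided these markers. The ratio of saline IP to input, which uses neither the cocaine nor the yoked libraries, was below 1 (a log2 ratio below 0) for 57 of the 74 genes on the oligodendrocyte, precursor, astrocyte and interneuron lists. All 57 of those were higher in cocaine, 28 at an unadjusted p under 0.05, with a median log2 fold change of 0.62. Of the 17 with a ratio above 1, 7 were higher, 1 at an unadjusted p under 0.05, with a median of −0.03. This division was made after the values were seen and is a description only.

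A similar order was seen over the genes of moderate or high abundance as a whole (an average log2 CPM of at least 1, 12918 genes). It was not shared by every gene list. The 12918 genes were ordered by the saline IP to input ratio and cut into 10 equal groups (deciles). In the lowest decile, the 1292 genes least retained, 127 (9.83%) were higher in cocaine and 6 (0.464%) lower at an unadjusted p under 0.05. In the highest decile, 1 (0.0774%) was higher and 49 (3.79%) were lower. Without the replicate term the lowest decile held 24 higher (1.86%) and the highest 7 lower (0.542%). Deciles between these held 0.465% to 1.78% higher and 0.155% to 1.24% lower. Across the 12918 genes Pearson's r between log2 fold change and ratio was −0.30, with −0.21, −0.04 and −0.18 for pairs 1 to 3. The gene lists differed in this. Among members with a log2 ratio below 0, 13 of 16 neuropeptide genes were higher (median 0.34), and 10 of 12 genes of layers 2 to 4 (0.17). Glutamate receptor genes were 12 of 26 (−0.006), GABA receptor genes 5 of 15 (−0.05) and nuclear noncoding RNAs 4 of 12 (−0.04). Genes within a library share depth and capture and are not independent replicates, so no p is given.

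The 2 ends of this order behaved differently across pairs. The lowest decile had pair medians of 0.30, −0.06 and 0.09, so pair 2 did not share it. From the first to the ninth decile pair 1 went down from 0.30 to −0.19 while pair 2 went up from −0.06 to 0.07, and pair 3 went down from 0.09 to −0.06. In the highest decile the medians were −0.07, −0.11 and −0.12. Without yoked replicate 3 the highest decile had a median of −0.02 instead of −0.10, with 22 genes (1.70%) higher and 29 (2.24%) lower at an unadjusted p under 0.05. Without cocaine replicate 1 the lowest decile had a median of −0.0026, and 28 genes (2.17%) were higher at an unadjusted p under 0.05. Without yoked replicate 1 there were 69 (5.34%). The input is a single saline library, so the ratio has no replicate check on its input side. The part of background RNA held by the beads in these differences was not tested. Of the 33 genes called with no filter on low counts, 30 were higher in cocaine, 27 lay in the lowest decile and 13 were on the 4 glial and interneuron lists.

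**Figure D3:**
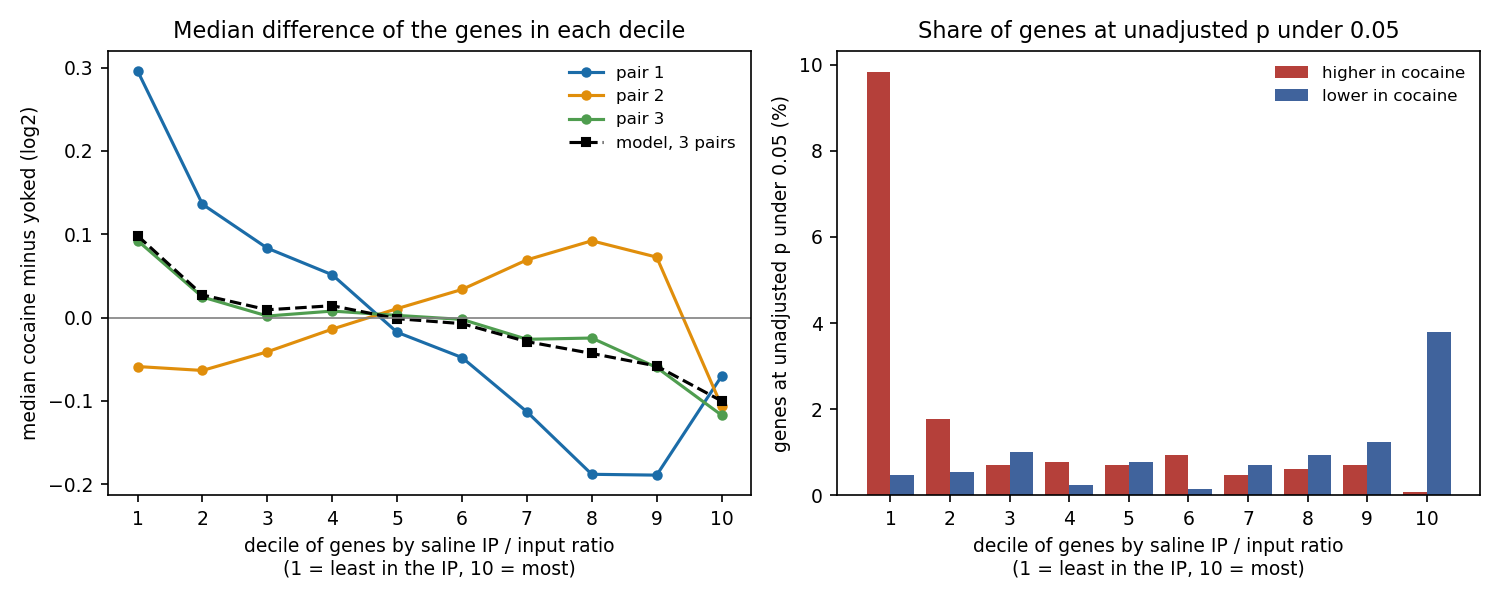
Genes in deciles by their saline IP to input ratio, from least (1) to most (10) retained; left, the median cocaine minus yoked log2 difference in each pair (coloured circles) and in the model (black squares); right, the percentage of genes at an unadjusted p under 0.05 in each direction. The lowest decile reaches 9.83% higher, and its median is 0.30 in pair 1 but −0.06 in pair 2.

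Markers of other cells varied by pair. Microglia genes were 11 higher and 9 lower of 20 with a median of 0.06, made of 0.99 in pair 1 and −0.22 and −0.25 in pairs 2 and 3. Cx3cr1, the fractalkine receptor of microglia, measured 2.82, 2.63 and 2.41 CPM in cocaine and 0.678, 1.76 and 2.40 CPM in yoked, so the groups only just did not overlap (0.84, interval 0.02 to 1.66). Rgs5, a marker of pericytes, measured 5.34, 3.76 and 3.12 CPM against 2.50, 2.95 and 1.60 CPM (0.81 ± 0.29 SE), while the mural list as a whole had a median of 0.04. The 16 meningeal fibroblast genes were 2 higher and 14 lower with a median of −0.14, none at an unadjusted p under 0.05. Dcn, a collagen-binding proteoglycan of that list, gave −0.05 (interval −0.34 to 0.24) and Ptgds −0.15 (interval −0.37 to 0.07). All 16 lay in the highest decile by IP to input ratio.

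Layer markers of excitatory neurons are given next. Slc17a7 measured 230, 303 and 539 CPM in cocaine and 332, 314 and 637 CPM in yoked, lower in each pair with broad overlap (−0.27 ± 0.12 SE, unadjusted p = 0.0465 by edgeR). The excitatory neuron list had 5 higher and 10 lower of 15 and a median of −0.07. Baiap2, an actin regulator of dendritic spines on that list, gave 0.35 (unadjusted p = 0.0375). Layer 5 intratelencephalic genes, the class in which S100a10 neurons are best known, were 8 higher and 6 lower of 14 with a median of 0.08, and their member Tox2 gave 0.79 (interval 0.13 to 1.44). Layer 5 pyramidal tract genes were 11 higher of 14 (median 0.13), layer 6 genes 10 higher of 15 (median 0.25) and genes of layers 2 to 4 were 12 higher of 16 (median 0.09). Medians in pair 1 alone were 0.70 for the pyramidal tract and 0.77 for layer 6, against −0.07 to 0.07 in pairs 2 and 3. Calb1, a calcium buffer of upper layers, gave 0.44 and was higher in all pairs. Cplx3 and Syt6, of the vesicle release machinery in layer 6, gave 1.04 and 0.68, with pair 2 at −0.02 and −0.0017.

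Genes of transmitter release and of energy supply showed how the pairs diverged. Synaptic vesicle genes were 15 higher and 18 lower of 33 (median −0.03), with Vamp1, a vesicle fusion protein, at 0.32 and higher in all pairs, and the presynaptic adhesion gene Nrxn2 at −0.22 and lower in all pairs. Of the 75 nuclear-encoded respiratory chain genes, 9 were higher in pair 1, 72 in pair 2 and 28 in pair 3, with pair medians of −0.38, 0.27 and −0.03. The model's median was −0.04. At an unadjusted p under 0.05, 1 gene, Ndufs5, was higher (0.46), where 1.68% of all genes tested were. Over 12168 genes with an annotated length, Pearson's r between the pair difference and log2 exonic length was 0.29 in pair 1, −0.35 in pair 2 and −0.02 in pair 3. With each library's length trend removed, 35 of the 75 respiratory chain genes were higher in place of 22, and the median was −0.0078. Without yoked replicate 1 the list's median was 0.07, with 57 higher. Heat shock and unfolded protein genes were 18 higher of 26 with a median of 0.12. Their chaperones Hspa8 and Hsp90ab1 gave 0.35 and 0.28, higher in all pairs (unadjusted p = 0.0453 and 0.0473 by edgeR). Without cocaine replicate 1 they gave 0.08 and 0.10.

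**Figure D4:**
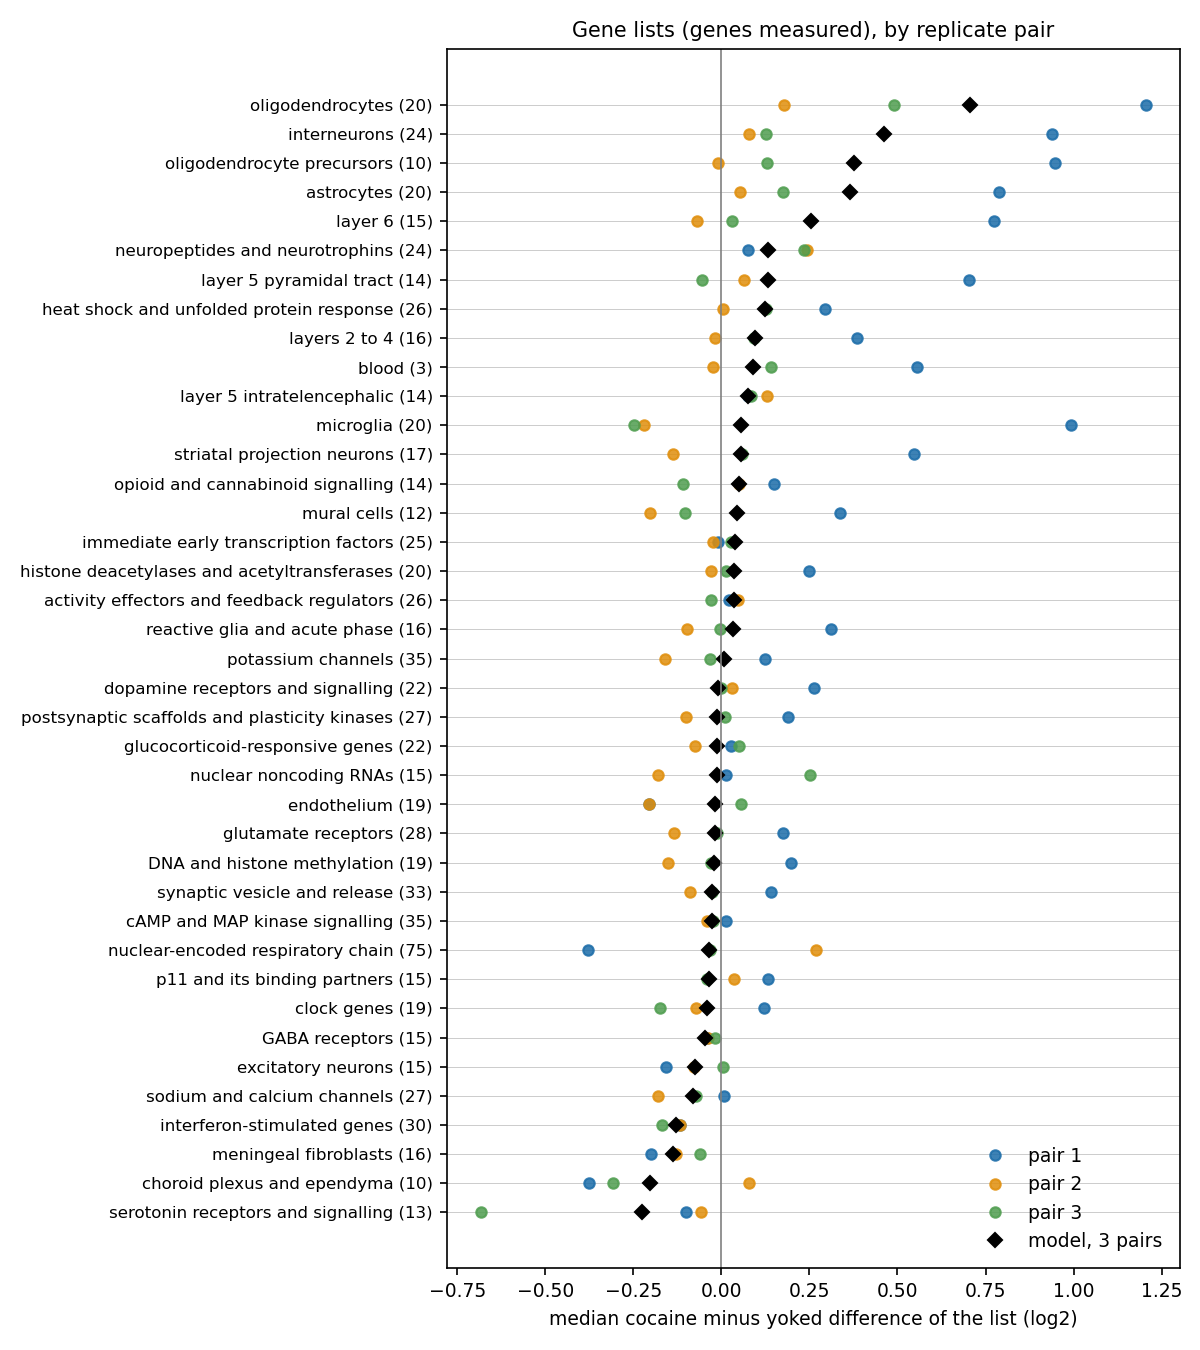
Median cocaine minus yoked log2 difference of each of the 39 gene lists (genes measured in brackets), in pair 1, pair 2 and pair 3 (circles) and in the model over 3 pairs (black diamonds), sorted by the model's median. The oligodendrocyte list is at the top with 0.71, and for the oligodendrocyte, precursor, astrocyte, interneuron, microglia, layer 6 and layer 5 pyramidal tract lists pair 1 lies far to the right of pairs 2 and 3.

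Interferon-stimulated genes leaned lower in all 3 pairs. These genes encode antiviral and antigen-presenting proteins, and many are switched on when interferon-activated transcription factors bind a short promoter sequence, the interferon-stimulated response element. Of 30 measured, 24 were lower and 6 higher, with a median of −0.13 and pair medians of −0.12, −0.12 and −0.17. Lower in all 3 pairs were 12 of the 30, where 10.7% of all genes tested were, and 1 was higher in all 3. At an unadjusted p under 0.05 there were 2 lower (0.955% of all genes tested were) and none higher. Summed levels were 742, 678 and 923 CPM in cocaine and 782, 746 and 1003 CPM in yoked, each cocaine library below the yoked library of its number. The saline libraries held 1154, 859 and 913 CPM. Of the 30 genes, 20 lay in the highest decile by IP to input ratio, the decile whose genes also leaned lower, so the 2 patterns overlap.

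Promoters are shown for 2 of these genes whose groups did not overlap, to let the element be read in place. They are the 250 bases before the annotated start, from RefSeq (GRCm38.p6), in the direction of transcription. Capitals mark matches to the core of the element, which is GAAA, any 2 bases, and GAAA again, or on the other strand TTTC, any 2 bases, and TTTC again. The Rsad2 window is chr12:26456453-26456702 on the minus strand and the Ifit3 window chr19:34583279-34583528 on the plus strand, and neither overlaps an annotated exon.
Rsad2: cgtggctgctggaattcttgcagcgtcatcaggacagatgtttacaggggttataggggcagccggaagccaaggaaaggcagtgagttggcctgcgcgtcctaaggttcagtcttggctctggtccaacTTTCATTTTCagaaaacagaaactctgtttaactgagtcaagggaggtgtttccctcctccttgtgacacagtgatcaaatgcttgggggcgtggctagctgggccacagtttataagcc
Ifit3: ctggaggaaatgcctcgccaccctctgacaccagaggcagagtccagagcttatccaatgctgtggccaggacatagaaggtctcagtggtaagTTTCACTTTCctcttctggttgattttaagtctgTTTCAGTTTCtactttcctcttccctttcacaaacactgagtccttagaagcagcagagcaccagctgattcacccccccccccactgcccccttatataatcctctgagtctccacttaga

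The Rsad2 match begins 120 bases before the start, and those of Ifit3 begin 156 and 122 bases before it. Both strands of each window were searched, and overlapping matches were counted. Of the 30 genes, 24 had a window and 11 of those (45.8%) held the core, against 373 of 11790 genes tested with a window (3.16%) and 978 of 32851 windows in all (2.98%). The list was drawn up from known interferon targets, so this share describes the list and not the comparison. Among the 5 members that were lower with groups that did not overlap, 3 held the core (60.0%).

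Rsad2, which encodes the antiviral enzyme viperin, had the smallest unadjusted p of the lower genes named by rule, 0.0024 by edgeR. It measured 1.51, 0.619 and 1.75 CPM in cocaine and 3.70, 1.95 and 5.94 CPM in yoked. Every cocaine library was below every yoked library, and the pairs were even at −1.27, −1.59 and −1.74. The log2 fold change was −1.57 ± 0.43 (SE), a level 2.97-fold lower in cocaine. The saline libraries held 2.52 CPM ± 1.02 (SD, n = 3), between the 2 groups.

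Ifit1, an antiviral RNA-binding protein, measured 17.9, 13.8 and 20.8 CPM in cocaine and 25.9, 18.1 and 29.4 CPM in yoked. Each pair was lower, by −0.53, −0.38 and −0.49, while the groups overlapped through yoked replicate 2 (−0.47 ± 0.19 SE, unadjusted p = 0.0271 by edgeR). The other four members without overlap, singled out after their values were seen, were Ifit3 (−0.32), Ifit2 (−0.28), Gbp2 (−0.40) and Irf7 (−0.77), all with intervals that included 0. Gbp2 is a guanylate-binding protein of cell-autonomous immunity, and Irf7 is a transcription factor that amplifies interferon production. Ifit3, at 38.0, 33.8 and 39.7 CPM against 58.0, 40.6 and 43.5 CPM, shows how narrow the gap was. On the other side Ifih1, a sensor of double-stranded RNA, was higher without overlap at 11.9 to 15.5 CPM against 10.4 to 11.5 CPM (0.30, interval −0.07 to 0.67). The list's median was −0.02 without yoked replicate 3, where none of its genes was at an unadjusted p under 0.05, and −0.23 without yoked replicate 1.

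**Figure D5:**
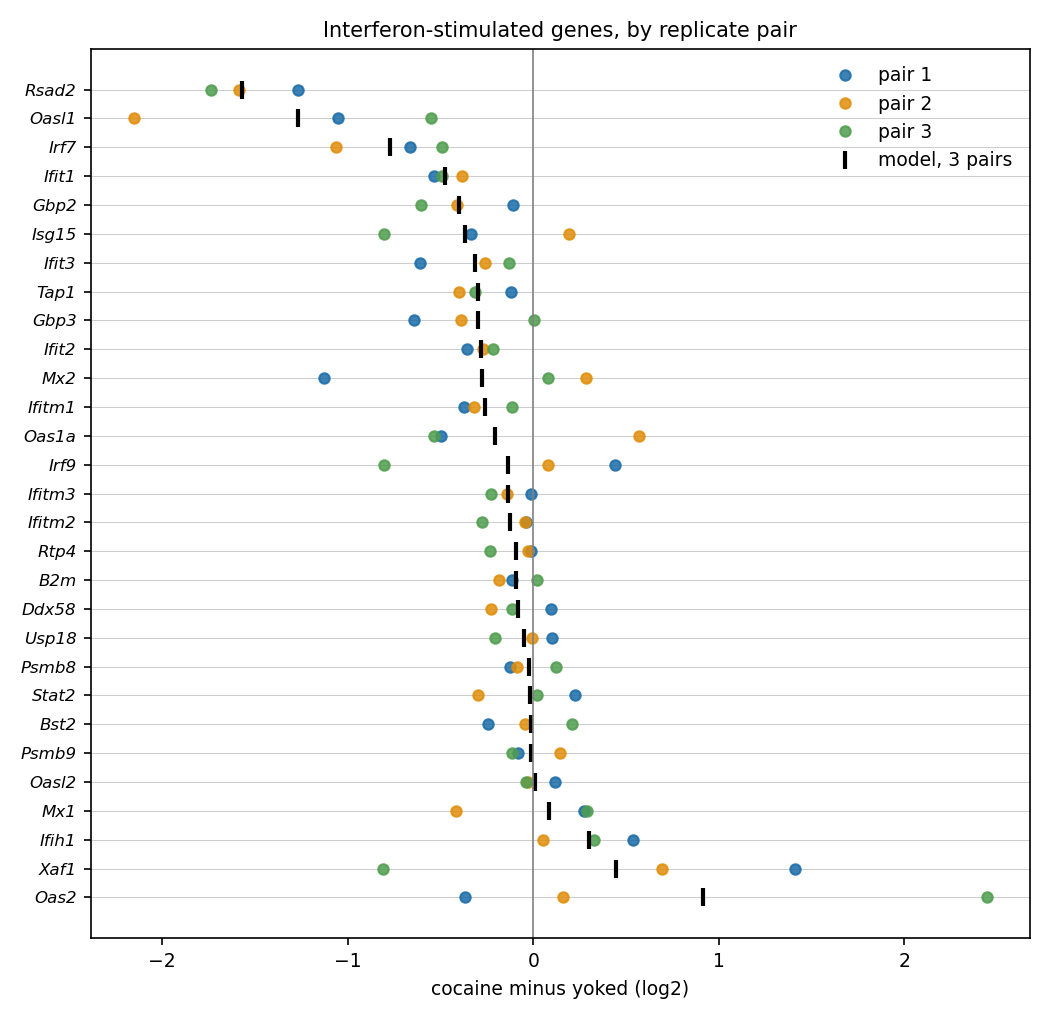
Cocaine minus yoked log2 difference of 29 of the 30 measured interferon-stimulated genes, in pair 1, pair 2 and pair 3 (circles) and in the model (black bars), sorted by the model's value. Rsad2 is lower by 1.27 to 1.74 in the 3 pairs, and most other model values lie within 0.5 of 0.

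The 12 higher and 12 lower genes of smallest unadjusted p with consistent pairs and no overlap between groups include several of the above. Serpina3n (chromosome 12, 104406729 to 104414329, GRCm38), a secreted protease inhibitor known to increase in reactive astrocytes, led the higher ones. It measured 15.4, 11.5 and 5.65 CPM in cocaine and 1.10, 3.20 and 3.19 CPM in yoked. All cocaine libraries were above all yoked ones, and the pairs differed widely at 3.76, 1.83 and 0.82. The log2 fold change was 2.27 ± 0.52 (SE), with an unadjusted p of 0.000572 by edgeR. The saline libraries were as variable, at 8.10 CPM ± 7.07 (SD, n = 3). With libraries left out, its log2 fold change ran from 1.475 (without the libraries numbered 1) to 2.942 (without cocaine replicate 3). Without the libraries numbered 3 the gene was called, with a log2 fold change of 2.67 and an adjusted p of 0.00199 by edgeR. It was also called without cocaine replicate 3 and with no filter on low counts, and in no other setting.

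Rpp25, a protein subunit of ribonuclease P, had the second smallest p of these. It measured 11.5, 11.6 and 9.28 CPM in cocaine and 5.61, 7.14 and 4.86 CPM in yoked, with clear separation and even pairs of 1.03, 0.69 and 0.93 (0.90 ± 0.21 SE, unadjusted p = 0.000711 by edgeR). It is also depleted from the IP, at −1.01 on the log2 scale. The remaining higher genes were Fgfr3 and Rgs5 (above), the neuronal membrane proteins Lrrn1 (0.55) and Dner (0.51), the double-stranded RNA receptor Tlr3 (0.64), the ciliary dynein subunit Wdr60 (0.43), Nosip (0.40), the mitochondrial transhydrogenase Nnt (0.41), AI464131 (0.81) and Lekr1 (0.72). Nnt had tight groups, at 21.6, 20.7 and 22.5 CPM against 16.2, 16.8 and 15.8 CPM, and, apart from Serpina3n at 0.03, was the only one of the 12 that was more abundant in the saline IP than in the input (0.57 on the log2 scale).

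Among the lower genes Calml4, a calmodulin-like protein, measured 1.92, 1.06 and 1.31 CPM in cocaine and 4.77, 2.91 and 2.03 CPM in yoked (−1.12 ± 0.32 SE). Fibin, a secreted protein, measured 6.52, 8.07 and 8.03 CPM against 14.1, 9.80 and 12.2 CPM (−0.66 ± 0.20 SE). Both were strongly retained in the IP, by 4.02 and 3.67 on the log2 scale over input. The others included Colgalt1, a galactosyltransferase of collagen (−0.44), Pigm and Alg1, mannosyltransferases of glycolipid anchors and of N-glycans (−0.47 and −0.72), and Vangl1, a planar polarity protein (−0.57). The rest were Pik3r6 (−0.61), Lrrc10b (−0.46), Lrrc23 (−0.91), the mitochondrial iron-sulfur protein Bola3 (−0.48) and the tubulin carboxypeptidase Vash1 (−0.41). Of these 12 genes, the smallest gaps were in pair 3 for Lrrc10b (−0.01) and Vash1 (−0.05).

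A pair of genes stood out for a single reason each. Ttr, the transthyretin gene of the choroid plexus, measured 1.22, 0.929 and 0.143 CPM in cocaine and 23.0, 0.868 and 0.362 CPM in yoked, so its log2 fold change of −2.38 (interval −4.67 to −0.08) rests on the 882 counts of yoked replicate 1 and was 0.34 without that library. The other five libraries held 7 to 54 counts. AK184713, singled out after its values were seen, held 59, 74 and 37 counts in cocaine and 1, 3 and 0 in yoked. It was the only gene called when the 6 libraries were fitted alone with the replicate term (adjusted p = 0.0338 by edgeR). It was also among the 33 genes called with no filter on low counts (adjusted p = 3.69e-06 by edgeR). Its level was 0.754 to 1.64 CPM in cocaine and at most 0.0579 CPM in yoked.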

How the data were processed

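Raw read counts per gene symbol were deposited, 1 table per library. STAR 2.0.0e, HTSeq and the build mm10 are named in the submitters' processing notes, while the sources used here give no strand setting, HTSeq version or annotation. Reads from overlapping or antisense genes may therefore be misassigned. Reads that aligned at more than 1 place, 38.3% to 41.6% of those tabulated in the 6 libraries, were assigned to no gene. Genes with near-identical copies may therefore be undercounted. Entries that name no gene, 47.4% to 50.0% of all reads tabulated in the 6 libraries, were left out of library sizes. The main test was edgeR 4.0.16 (quasi-likelihood, TMM scaling, filterByExpr with a minimum count of 10) on the 9 IP libraries with group and replicate number as terms and the contrast cocaine minus yoked, Benjamini-Hochberg over all genes tested, checked on simulated data. The saline libraries entered to raise the residual degrees of freedom to 4. CPM values are counts divided by the TMM-scaled library size. Pair differences are in log2 CPM. Alternatives were RLE scaling, no filter or a stricter one (CPM of at least 1), removal of Rn45s, other library sets, no replicate term, DESeq2 1.42.0, limma-voom 3.58.1, each library left out, and, chosen after seeing the data, removal of each library's length trend. Coordinates are from GENCODE M21 (GRCm38), which matched 23155 of 32531 symbols. Named genes were 35 fixed ones, the 12 of smallest p each way with average log2 CPM at or above 1, one sign in all pairs and no overlap between groups, and the 2 members of smallest p each way in a list, of which a part chosen after the values were seen is given. The comparison and its 39 lists were chosen with earlier results of these data known. Lists are described by counts and medians with no test. A few single-gene results are not reported here.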

Additional observations from a re-analysis of the deposited data

How the results depend on the processing

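The number of genes called by edgeR was 0 without the replicate block, with the 6 libraries and no replicate block, with RLE scaling, the stricter filter, Rn45s removed, the length trend removed, and in limma-voom. It was 1 with the 6 libraries and the replicate block, 33 with no filter on low counts, 45 in DESeq2, and 0 to 6 when a library or a replicate number was left out. Genes higher at an unadjusted p under 0.05 (280) numbered 103 without the replicate block, 116 with the 6 libraries and no replicate block, 463 with no filter, and 147 to 476 with a library or a replicate number left out. Genes lower (159) numbered 56, 70 and 242 in the same 3 settings and 130 to 399 with a library or a replicate number left out. The oligodendrocyte count of 12 was 2 without the replicate block in either set of libraries, 7 in limma-voom and 2 to 16 with a library or a replicate number left out. The interneuron count of 8 was 0 without the replicate block in either set, 13 with no filter and 2 to 12 with a library or a replicate number left out. The astrocyte count of 6 was 1 without the replicate block in 9 libraries, 2 in 6 libraries, and 2 to 10 with a library or a replicate number left out. The interferon count of 2 lower was 1 without the replicate block in either set, 4 with no filter, 1 with the stricter filter and 0 to 5 with a library or a replicate number left out. Genes whose groups did not overlap numbered 477 with the stricter filter, which tests fewer genes. Genes called between replicate 3 and the others numbered 1085 with the 6 libraries and 1089 to 3535 with a library left out. The causes were not tested.

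With a library or a number left out, the log2 fold changes that turned sign ranged over −0.23 to 0.16 for S100a10, −0.015 to 0.12 for Anxa2, −0.27 to 0.19 for Ahnak, −0.16 to 0.16 for Fos, −0.21 to 0.12 for Fosb, −0.057 to 0.51 for Junb, −0.032 to 0.22 for Egr1, −0.42 to 0.0018 for Egr2, −0.095 to 0.20 for Egr4, −0.089 to 0.27 for Arc, −0.17 to 0.19 for Nr4a1, −0.18 to 0.17 for Bdnf, −0.094 to 0.12 for Homer1, −0.22 to 0.30 for Dusp1, −0.25 to 0.016 for Sgk1, −0.26 to 0.064 for Drd1, −0.65 to 0.49 for Drd2, −0.75 to 0.15 for Htr4, −0.31 to 0.13 for Grin2b, −0.12 to 0.16 for Grm5, −0.31 to 0.062 for Cdk5, −0.14 to 0.13 for Dcn, −3.59 to 0.34 for Ttr, −0.24 to 0.11 for Cldn11, −0.22 to 0.024 for Bmp4, −0.13 to 0.067 for Pdgfra, −0.0041 to 1.02 for Rgs9 and −0.32 to 0.18 for Ndnf. Ahnak also turned sign with the 6 libraries and the replicate block (0.023), RLE scaling (0.00010), Rn45s removed (0.0019), DESeq2 (0.0011) and limma-voom (0.014). Grm5 did so without the replicate block (0.014), with the 6 libraries with the block (0.0028) and without it (0.015), RLE scaling (0.0043), no filter (0.0017), the stricter filter (0.0022), Rn45s removed (0.0055), DESeq2 (0.0049) and limma-voom (0.0016).

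Deviations from the group mean correlated between cocaine and yoked libraries of the same number by −0.03, 0.07 and 0.32 for numbers 1 to 3, and cocaine replicate 1 correlated more with yoked replicate 2 (0.26) than with its own number. Same-numbered saline libraries correlated by 0.12 (yoked 1), −0.04 (cocaine 1), 0.21 (cocaine 2), 0.22 (yoked 2), 0.31 (cocaine 3) and 0.28 (yoked 3). Pairing by number is therefore not shown for numbers 1 and 2 of the cocaine and yoked groups. With 3 libraries a group and 4 residual degrees of freedom, the log2 differences of most genes were below their standard errors, and genes under a few CPM have wide intervals.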
